A study of Mus musculus with 21 samples.

Results

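The genes described here are 38 mouse genes for drug and toxicant metabolism: 20 cytochrome P450 enzymes, 12 conjugating enzymes and 6 other enzymes of oxidation and hydrolysis. They were picked by name, and each was studied through its RefSeq gene body plus 25 kb on each side, called its window, out of 21887 protein-coding genes treated in the same way. The material was primary hepatocytes perfused from livers of mice at postnatal day 90 on a C57/B6 and 129 mix background, and chromatin immunoprecipitation with sequencing (ChIP-seq) had been used to map a transcription factor, a histone mark and a chromatin remodeller. The mice called WT carried floxed alleles (Arid1a Fl/Fl), and those called KO carried the same alleles with a Cre recombinase under the albumin promoter (Arid1a Fl/Fl; Alb-cre), which is active in hepatocytes. A separate mouse line carried V5-Arid1a. The data were 11 peak lists: 4 for C/EBPα (2 from WT, 2 from KO), 6 for H3K4me2 (3 from WT, 3 from KO) and 1 for the V5 tag, which has no replicate. No source used here says whether the libraries came from separate mice, so the tests measure only the spread between these libraries. Cre can leave some cells unrecombined, and whether Arid1a was removed cannot be read from peak lists, so the genotypes stand as labelled.

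Cytochrome P450 enzymes insert oxygen into drugs, steroids and fatty acids, using electrons passed on by the reductase Por. Transferases then attach glucuronic acid, glutathione or sulfate to make the products soluble, and epoxide hydrolase, carboxylesterases, flavin monooxygenases and aldehyde oxidases work beside them. Most of these genes are far more active in hepatocytes than elsewhere. C/EBPα is a leucine-zipper transcription factor of differentiated hepatocytes, H3K4me2 marks promoters and enhancers, and ARID1A is a DNA-binding subunit of one form of the SWI/SNF remodelling complex.

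Between 16178 and 23646 peaks were listed per C/EBPα library and 5726 for ARID1A. The H3K4me2 lists ranged from 24908 to 61246 peaks except KO replicate 3, which stood apart with 175797. Read numbers are not stated, which leaves the depth behind a peak unknown. The names of the C/EBPα and V5 lists say that they were filtered, by a rule not given in the sources used here, and peak numbers, losses and gains may depend on it. A missing peak means that none was listed there, and fewer cells with a bound site cannot be told apart from weaker binding in each cell. As a check of the cell type, all 6 hepatocyte marker genes had H3K4me2 at the start in all 6 lists, against 1 of 6 endothelial, 1 of 6 biliary, and none of 6 Kupffer and leukocyte or 6 stellate and fibroblast markers.

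C/EBPα was dense around the drug-metabolism genes in both genotypes. A window of one of the 38 genes held a median of 3 and 4 C/EBPα peaks in the WT lists and 3 and 3 in the KO lists, where over all genes the medians were 0 and 1 in WT and 0 and 0 in KO, for windows of similar length (median 66.3 kb against 67.2 kb). Peaks of the 4 lists that shared at least 1 bp were joined into regions, and the 38 windows held 167. A region is called kept when all 4 lists had a peak in it, lost when both WT lists had one and neither KO list did, and gained for the reverse. By this rule 88 regions were kept, 15 were lost, 5 were gained and 59 had another combination. Of 111 regions that both WT lists shared, 15 were lost, or 13.5% (95% exact binomial interval 7.77 to 21.3), and across the genome 19.3%. Of 104 that both KO lists shared, 5 were gained, or 4.81% (1.58 to 10.9), against 5.27% across the genome. These intervals cover counting only, and 14 of the 38 genes lie in 6 clusters whose windows overlap, so the genes make up 30 separate loci.

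By gene, 13 of 38 windows held a lost region, where 27.1% of all windows with a region in both WT lists did, and 6 held a gained region, where 13.4% of all windows with a region in both KO lists did. Cyp4f14 had both, and 20 genes had neither. A kept region lay in 34 of the 38 windows (89.5%), against 38.5% of all windows. That base is unlike, since each of the 38 windows had a region in both WT lists. Genome-wide, 9949 windows had such a region and 8434 held a kept one. The counts depended on single libraries: with WT replicate 2 alone standing for WT (without WT replicate 1), 34 regions were lost, or 23.3% against 30.1% across the genome. Gained regions numbered 8 without WT replicate 1 (7.69%, against 6.71% across the genome) and 13 without WT replicate 2 (12.5%, against 16.6%). They numbered 11 without KO replicate 1 (9.24%, against 11.2%) and 10 without KO replicate 2 (8.47%, against 9.27%). The share thus rose across the genome as well.

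**Figure D1:**
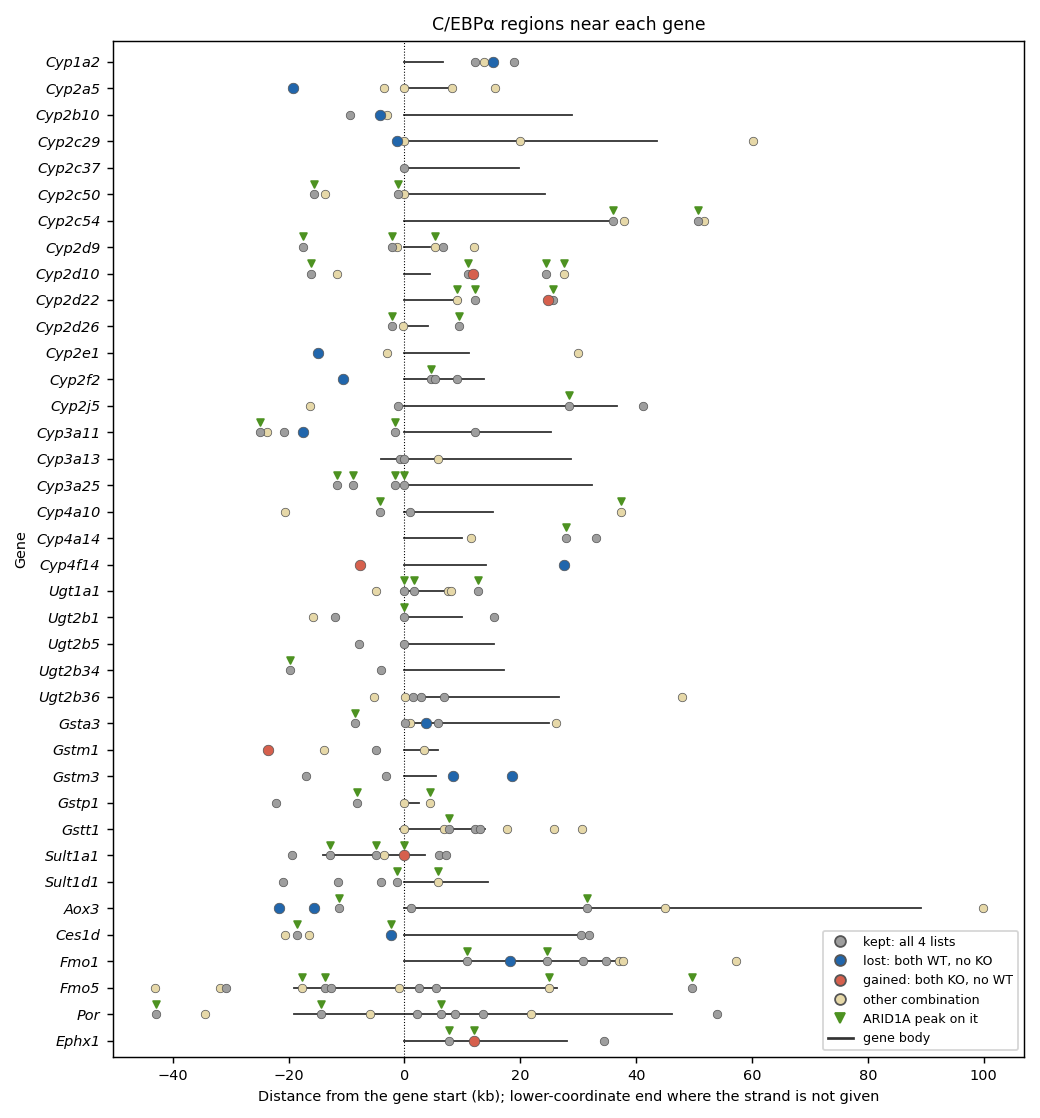
C/EBPα regions (points) by distance from the gene start in kb for the 38 genes, coloured by which lists had a peak, with gene bodies as lines and triangles where an ARID1A peak overlapped. Kept regions (88) outnumber lost (15) and gained (5) ones, and apart from the gained region on Sult1a1 the lost and gained points lie off the gene starts.

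Across the 38 genes, peak numbers were lower in both KO lists than in both WT lists at 8 genes and higher at 5, where 13.6% and 6.21% of all windows tested did the same. The 8 lower genes were Cyp2e1, Gstm3, Cyp2f2, Cyp2a5, Cyp2b10, Cyp3a11, Aox3 and Ces1d, and the 5 higher ones were Cyp2d10, Cyp2d22, Sult1a1, Fmo5 and Ephx1. The linear model fit (limma on log2 of peaks + 1, 9457 windows) called 4 of the 38 at a Benjamini-Hochberg adjusted p under 0.05, beside 9.38% of all windows: Cyp2e1, Gstm3 and Cyp2f2 lower (5.92% of all) and Ephx1 higher (3.46% of all). Those calls carry little information on replicate spread. Of the windows called across the genome, 98% had equal numbers within WT and within KO, and 869 of the 870 windows with equal numbers within each genotype and a difference between them were called. The adjusted p of the 4 genes ran from 7.12e-08 (Cyp2e1) to 0.000802 (Cyp2f2) on fitted SEs of only 0.00017 to 0.00506, since none of the 4 had any spread within a genotype. Windows entered the fit with at least 4 peaks summed over the 4 lists. Cyp2e1, with 2 and 2 in WT and 0 and 0 in KO, just met this limit and did so only through the WT lists, so its call is no independent support for a loss. The exact permutation test of 2 against 2 lists cannot go below p = 0.333. With 50 kb on each side the fit called 0 of the 38 genes, beside 8.82% of all windows. Which genes were called also changed: of these 4, Gstm3 and Ephx1 were called with 10 kb on each side, Ephx1 with lists cut to equal size, and none among the wider peaks (width at or above the median). The median log2 difference was 0 for the 38 genes and 0 over all windows tested.

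**Figure D2:**
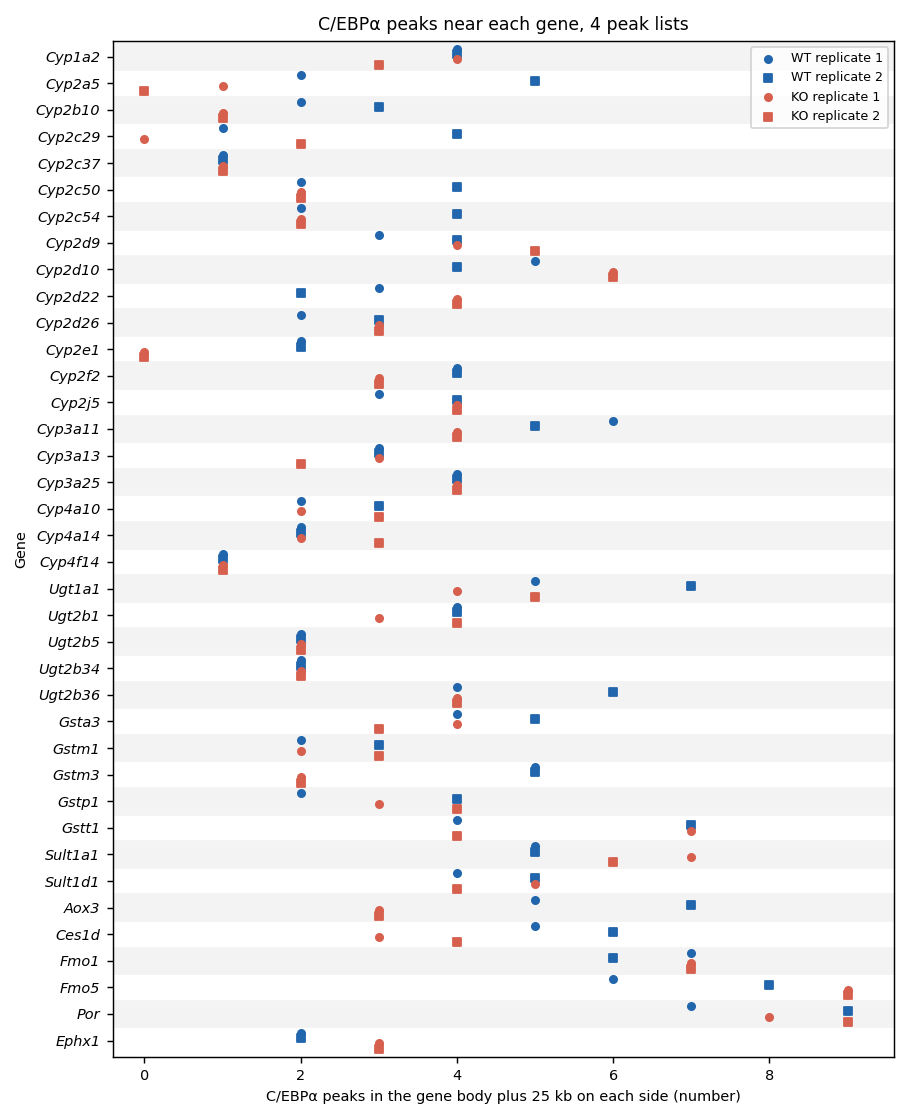
Number of C/EBPα peaks in each gene's window (x axis) in the 2 WT lists (blue) and 2 KO lists (red). Cyp2e1 has 2 peaks in each WT list and 0 in each KO list, Gstm3 has 5 and 2, and most other genes overlap between genotypes.

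Cyp2e1, which oxidises ethanol and paracetamol, was the one gene of the 38 whose window had C/EBPα peaks in both WT lists and none in either KO list, a pattern seen in 7.47% of all windows with a peak in both WT lists. It had 2 peaks in WT replicate 1, 2 in WT replicate 2, and 0 in each KO list, a log2 difference of -1.58. The lost region lay 14694 bp outside the gene, upstream of the start, at chr7:140748737-140749124. It held H3K4me2 in 3 WT lists and in 1 KO list. The other peaks stood in a single WT list each, 1 of them 2758 bp outside the gene in WT replicate 2 and 1 nearer to Syce1 in WT replicate 1. The lost region's peaks were narrow to middling, at the 7.75th and 40.3rd width percentile of their lists. No ARID1A peak lay in the window. With 50 kb on each side the log2 difference was -0.74 and was not called (limma adjusted p = 0.311), and with 10 kb on each side or with lists cut to equal size, Cyp2e1 held too few peaks to be tested.

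Cyp2f2, which activates naphthalene, had 4 peaks in each WT list and 3 in each KO list. Its lost region lay 10407 bp from the gene and had no H3K4me2 peak in any list, and its width percentiles were 23.6 and 2.02. With 10 kb on each side the difference was 0, and among the wider peaks it turned to 0.29 on the log2 scale. Cyp2j5, an arachidonic acid epoxygenase, had 3 and 4 peaks in WT against 4 and 4 in KO, and its regions included 3 that were kept.

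Each of Cyp1a2, Cyp2a5 and Cyp2b10 had 1 lost region in its window. Cyp1a2, which metabolises caffeine and aromatic amines, had 4 and 4 peaks in WT against 4 and 3 in KO, so the groups overlapped, and its lost region lay 8374 bp away. Cyp2a5, a coumarin hydroxylase, had 2 and 5 peaks in WT against 1 and 0 in KO, with no kept region, and its lost region lay in the body of the neighbouring Cyp2g1. Cyp2b10, the classical target of phenobarbital induction, had 2 and 3 peaks in WT against 1 and 1 in KO. Its lost region lay 4067 bp outside the gene at chr7:25893210-25893590, with H3K4me2 in 1 WT list and no KO list. For Cyp2a5 and Cyp2b10 the groups did not overlap, but neither passed the test (limma adjusted p = 0.634 and 0.326).

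The CYP2C genes differed in their C/EBPα peaks. Cyp2c29 had 1 and 4 peaks in WT against 0 and 2 in KO, with no kept region. Its lost region lay 1112 bp from the gene at chr19:39285614-39285931 and was narrow, at percentiles of 8.10 and 6.87. Cyp2c37 had 1 peak in every list. Cyp2c50 and Cyp2c54 had the same numbers, 2 and 4 in WT against 2 and 2 in KO, because their windows overlap and share regions. The 4 CYP2C genes thus had no gained region, and 1 of them had a lost one.

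In the CYP2D cluster, 2 of the 4 genes had more peaks in both KO lists than in either WT list. Cyp2d22, the mouse gene most often set beside human CYP2D6, had 3 and 2 peaks in WT against 4 and 4 in KO. Cyp2d10 had 5 and 4 in WT against 6 and 6 in KO. Neither difference passed the test (limma adjusted p = 0.549 and 0.533), but both were called with lists cut to equal size, Cyp2d10 also with 10 kb on each side and Cyp2d22 among the wider peaks. Both windows took in the same gained region, 1198 bp from Cyp2d11 at chr15:82395221-82395546, at width percentiles of 18.6 and 18.0. Cyp2d9 had 3 and 4 peaks in WT against 4 and 5 in KO, and Cyp2d26 had 2 and 3 in WT against 3 and 3 in KO. No CYP2D window held a lost region.

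Among the CYP3A genes, Cyp3a11, the main counterpart of human CYP3A4, had 6 and 5 peaks in WT against 4 and 4 in KO (log2 difference -0.37, limma adjusted p = 0.372). Its lost region lay 17417 bp away, and 4 of its regions were kept. Cyp3a13 had 3 and 3 peaks in WT against 3 and 2 in KO. Cyp3a25 had 4 peaks in every list, and all 4 of its regions were kept and had an ARID1A peak. The fatty acid hydroxylase genes Cyp4a10 (2 and 3 in WT, 2 and 3 in KO) and Cyp4a14 (2 and 2 in WT, 2 and 3 in KO) had neither lost nor gained regions. Cyp4f14, which inactivates leukotriene B4, had 1 peak in every list, but at different places. The region in both WT lists lay in Zfp870 at chr17:32889631-32890069, and the region in both KO lists lay in Cyp4f13 at chr17:32924756-32925161, so equal numbers came from different places.

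The 5 UDP-glucuronosyltransferase genes had no lost and no gained region. Ugt1a1, which conjugates bilirubin, had 5 and 7 peaks in WT against 4 and 5 in KO, and 3 of its regions were kept. Ugt2b1 had 4 and 4 in WT against 3 and 4 in KO. Ugt2b36 had 4 and 6 in WT against 4 and 4 in KO, and Ugt2b5 and Ugt2b34 each had 2 in every list. A kept region with wide peaks in every list lay 7324 bp from Ugt2b5 at chr5:87147665-87148872, at width percentiles of 99.2 and 99.7 in WT and 99.0 and 98.5 in KO. No member of this class had peak numbers that separated the genotypes.

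The glutathione S-transferase genes differed among themselves. Gstm3 had 5 and 5 peaks in WT against 2 and 2 in KO, a log2 difference of -1, with no overlap between genotypes. With lists cut to equal size the difference was -0.58 and was not called (limma adjusted p = 0.303), and with 50 kb on each side it was -1.01 (adjusted p = 0.215). Of its lost regions, 1 lay 2691 bp from the gene at chr3:107960670-107961004 and 1 in the body of Gstm6 at chr3:107950277-107950873. The remaining difference came from a kept region 2743 bp from the gene, where each WT list had a pair of peaks and each KO list a single peak, which in KO replicate 2 spanned both. The neighbour Gstm1 had 2 and 3 peaks in WT against 2 and 3 in KO and a gained region in the body of Gstm4. Gsta3 had 4 and 5 in WT against 4 and 3 in KO, with a lost region inside the gene at chr1:21244111-21244401 and with H3K4me2 in all 6 lists. Gstp1 (2 and 4 in WT, 3 and 4 in KO) and Gstt1 (4 and 7 in WT, 7 and 4 in KO) had neither class of region.

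Sult1a1, which sulfates phenols, had 5 and 5 peaks in WT against 7 and 6 in KO (log2 difference 0.32, limma adjusted p = 0.383). The gained region lay over the promoter used here, at chr7:126676242-126676751, with width percentiles of 45.4 and 74.8 in the KO lists. It held an ARID1A peak and H3K4me2 in all 6 lists. The RefSeq gene body reaches to -14025 bp from that start, and near this upstream end a region at -13096 to -12517 bp was kept. Sult1d1, which sulfates catecholamines, had 4 and 5 peaks in WT against 5 and 4 in KO, and 4 of its regions were kept.

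The remaining enzymes of oxidation and hydrolysis went both ways. Ephx1, the microsomal epoxide hydrolase, had 2 peaks in each WT list and 3 in each KO list, a log2 difference of 0.42. Its gained region lay inside the gene at chr1:181005328-181005779 with width percentiles of 51.5 and 50.1, and it also held an ARID1A peak and H3K4me2 in all 6 lists. Fmo5 had 6 and 8 in WT against 9 and 9 in KO without a gained region. Aox3, an aldehyde oxidase, had 5 and 7 in WT against 3 and 3 in KO, and its lost regions numbered 2, both in the body of the adjacent Aox1. Ces1d, a carboxylesterase that also hydrolyses triglycerides, had 5 and 6 in WT against 3 and 4 in KO, with a lost region 2188 bp from the gene. Fmo1 had 7 and 6 in WT against 7 and 7 in KO and a lost region inside the gene. Por had 7 and 9 in WT against 8 and 9 in KO with 7 kept regions and no lost or gained one.

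**Figure D3:**
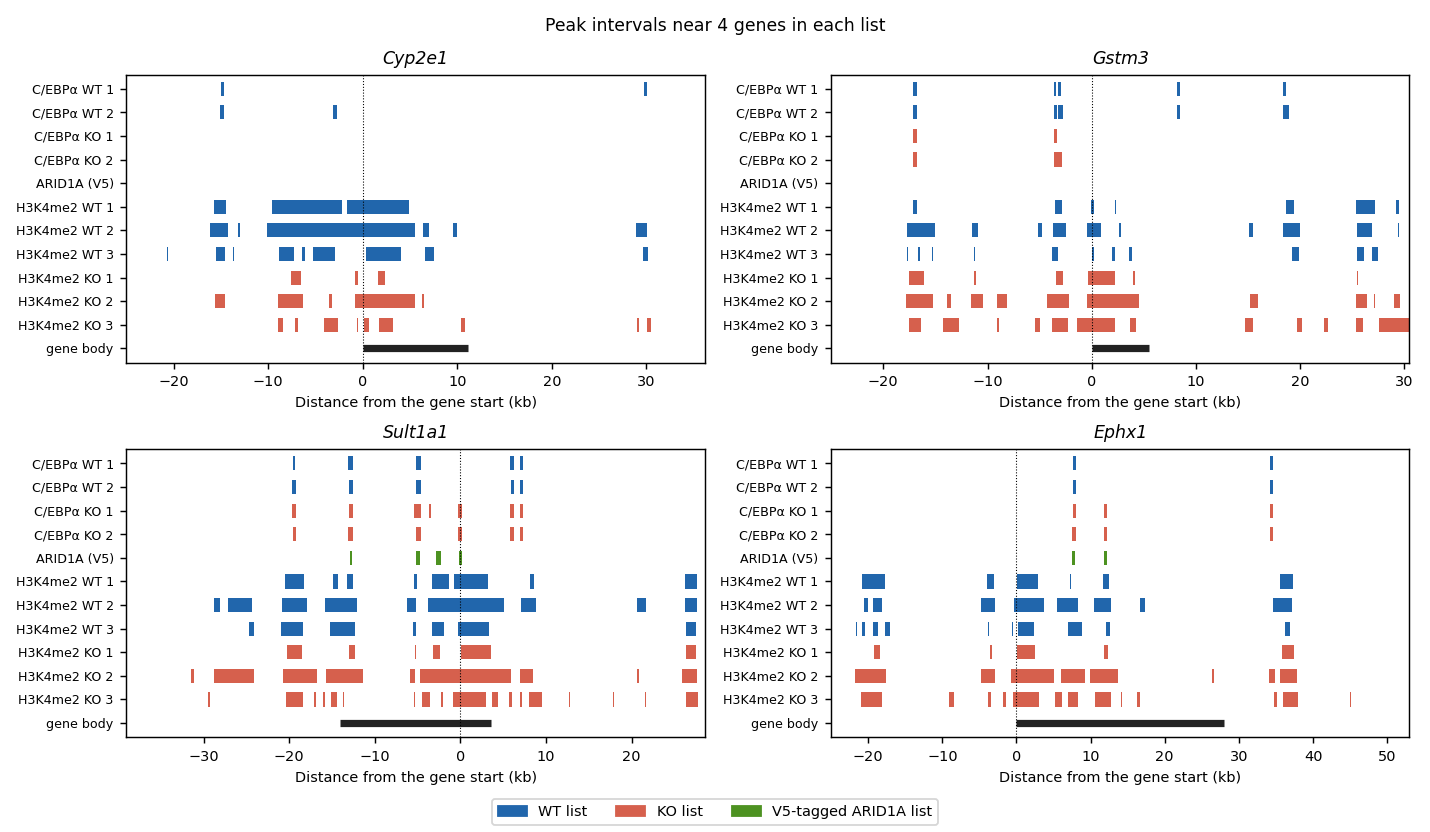
Peak intervals in each list near Cyp2e1, Gstm3, Sult1a1 and Ephx1, by distance from the gene start in kb, with WT lists in blue, KO lists in red and the ARID1A list in green. Near Cyp2e1 both KO C/EBPα rows are empty and H3K4me2 covers 3.52% to 17.1% of the window in KO against 17.6% to 32.9% in WT, and near Sult1a1 and Ephx1 the C/EBPα peak found only in the KO rows lines up with an ARID1A peak.

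Lost regions had a lower median width percentile than kept ones. The median width percentile in WT was 24.0 for lost regions of the 38 windows (from 7.48 to 51.6) and 66.4 for kept ones, as it was 36.2 and 61.2 across the genome. Among those wider peaks, 2 of 48 regions were lost (4.17%, against 17.7% across the genome) and 8 of 60 were gained (13.3%, against 12.1%). With lists cut to equal size, 7 of 93 were lost (7.53%, against 15%). At the 15 lost regions, H3K4me2 was absent from all KO lists at 8 and from all WT lists at 3. At the 88 kept regions it was absent from all KO lists at 3 and from all WT lists at 4. All 5 gained regions had H3K4me2 in at least 2 WT lists. By list, between 69.6% and 84.1% of all gained regions had it in WT. In KO replicates 1, 2 and 3, H3K4me2 was at 1, 7 and 3 of the 15 lost regions near the 38 genes. Over all lost regions these lists had it at 6.8%, 30.5% and 23.3%. In WT replicates 1, 2 and 3 it was at 5, 12 and 4 of the 15, beside 32.9%, 56.0% and 33.0% of all lost regions. Of the kept regions near the 38 genes, 58.0%, 90.9% and 68.2% had it in KO replicates 1, 2 and 3. Over all kept regions the shares in these KO lists were 49.3%, 82.5% and 61.0%.

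ARID1A peaks were frequent around these genes: 31 of 38 windows held at least 1 (81.6%), against 20.2% of all windows. Many of those other windows have no C/EBPα. Among all windows with a C/EBPα region in both WT lists, as each of the 38 had, 4104 held an ARID1A peak and 5845 did not. Regions with C/EBPα in both WT lists had an ARID1A peak at 40 of 111 (36.0%, interval 27.1 to 45.7), against 24.1% across the genome. Kept regions had one at 39 of 88 (44.3%, against 30.9% of all kept regions), and lost regions at 1 of 15, the one near Ces1d, against 6.08% of all lost regions. Of the gained regions, 2 of 5 had one, those of Sult1a1 and Ephx1 (interval 5.27 to 85.3%), against 8.01% of all gained regions. Of the 63 ARID1A peaks in these windows, 40 lay on a kept region, a share of 63.5% beside 63.7% of the whole ARID1A list, and 13 lay on no C/EBPα region. The widest was on a kept region of Por at chr5:135695079-135695694 (width percentile 97.9), and the next on no C/EBPα region near Cyp2b10 at chr7:25889278-25889867 (97.3).

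The 7 windows without an ARID1A peak were those of Cyp1a2, Cyp2a5, Cyp2c29, Cyp2e1, Cyp3a13, Cyp4f14 and Gstm3, and 6 of the 7 held a lost region. Of the 31 windows with an ARID1A peak, 7 held one. Across all windows with a region in both WT lists the shares were 27.2% without and 27.0% with an ARID1A peak. The split among the 38 genes was noticed in these values and not tested, and the 1 ARID1A library has no replicate.

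At gene starts, taken as 1 kb on either side, C/EBPα was present in all 4 lists at 12 of 38 genes, where 9.26% of all genes had this. Of the remainder, 9 genes had a peak in some lists, 15 in none, and 2 of the 38 (5.26%) in both KO lists only, namely Sult1a1 and Cyp2j5. That pattern held at 1.34% of all genes, and at 10.4% of only those starts with C/EBPα in both KO lists. At Cyp2j5 the region itself was kept, 932 bp outside the gene, and only the KO peaks reached into the start window. No start lost C/EBPα, beside 4.62% of all starts with C/EBPα in both WT lists. Among the 38 genes only the 12 starts with C/EBPα in all 4 lists had it in both WT lists, too few for an absence of losses to carry much information. H3K4me2 was present in all 6 lists at 29 of 38 starts (52.3% of all genes) and in some lists at the other 9. The strand of 6 genes is not given in the annotation used here, so for these either gene end was counted. At Sult1a1, Por, Fmo5 and Cyp3a13 the gene body reaches upstream of the start used, to -14025, -19105, -19081 and -3991 bp. Those upstream ends were not counted as starts, so the calls at these genes hold for the start used only.

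ARID1A had a peak at 8 of the 38 starts, where 1.87% of all genes had one. The 8 were Cyp2c50, Cyp2c54, Cyp2d22, Cyp3a25, Ugt1a1, Ugt2b1, Gstm1 and Sult1a1. At Cyp3a25, Ugt1a1, Ugt2b1, Cyp2c50 and Cyp2c54 the start also had C/EBPα in all 4 lists, at Cyp2d22 in some of them, and at Gstm1 in none.

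The promoters of Sult1a1, Ugt2b1, Ugt1a1, Cyp3a25 and Gsta3 are shown because C/EBPα peaks covered them: in KO only at Sult1a1, and in all 4 lists at the other 4, with ARID1A at all but Gsta3. Each stretch runs 5′ to 3′ on the gene's own strand from 250 bases before the start through the first 10 transcribed bases, from RefSeq on GRCm38.p6. The positions are chr7:126676409-126676668 (minus) for Sult1a1, chr5:86926494-86926753 (minus) for Ugt2b1, chr1:88211709-88211968 (plus) for Ugt1a1, chr5:146009608-146009867 (minus) for Cyp3a25 and chr1:21240335-21240594 (plus) for Gsta3. Capitals mark the C/EBP motif TTGCNNAA, searched on both strands.
Sult1a1: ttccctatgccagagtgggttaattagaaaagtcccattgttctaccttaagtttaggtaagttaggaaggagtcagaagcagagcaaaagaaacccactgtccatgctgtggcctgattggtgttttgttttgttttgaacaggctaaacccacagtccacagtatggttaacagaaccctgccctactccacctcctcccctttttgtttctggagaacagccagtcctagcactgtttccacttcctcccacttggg
Ugt2b1: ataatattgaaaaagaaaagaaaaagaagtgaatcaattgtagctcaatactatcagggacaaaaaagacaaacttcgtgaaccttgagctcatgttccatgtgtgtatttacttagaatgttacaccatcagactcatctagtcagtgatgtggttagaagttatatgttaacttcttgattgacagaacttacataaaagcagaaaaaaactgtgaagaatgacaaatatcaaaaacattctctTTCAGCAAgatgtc
Ugt1a1: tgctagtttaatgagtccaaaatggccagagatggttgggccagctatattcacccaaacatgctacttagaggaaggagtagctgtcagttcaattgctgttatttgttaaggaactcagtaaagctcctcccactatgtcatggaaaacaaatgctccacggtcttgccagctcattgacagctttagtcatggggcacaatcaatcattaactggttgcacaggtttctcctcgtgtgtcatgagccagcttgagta
Cyp3a25: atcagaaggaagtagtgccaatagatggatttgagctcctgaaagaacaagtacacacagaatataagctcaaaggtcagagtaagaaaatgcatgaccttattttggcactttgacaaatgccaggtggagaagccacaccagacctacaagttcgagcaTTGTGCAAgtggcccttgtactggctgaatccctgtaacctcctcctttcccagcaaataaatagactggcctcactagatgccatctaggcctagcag
Gsta3: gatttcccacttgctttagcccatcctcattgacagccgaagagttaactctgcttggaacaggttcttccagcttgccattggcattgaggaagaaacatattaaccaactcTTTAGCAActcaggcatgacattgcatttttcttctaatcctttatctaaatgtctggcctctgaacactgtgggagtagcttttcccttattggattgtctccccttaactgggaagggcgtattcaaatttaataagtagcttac

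The motif lay 137 bases before the start in Gsta3, 89 bases before it in Cyp3a25 and across it in Ugt2b1, and these letters were not found in the Sult1a1 and Ugt1a1 promoters. RefSeq promoters (250 bases before to 50 after the start) were matched for 32 of the 38 genes at 37 starts. The motif was in 14 of the 37, belonging to 10 genes, against 2162 of the 21263 promoters of all genes. Of the 7 genes with C/EBPα in all 4 lists at a promoter, 5 had it, and among all promoters with C/EBPα in all 4 lists 26.8% did. The hepatocyte factor motif CAAAGTCCA, of HNF4, was in 1 of the 37 promoters and in 0.451% of all.

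H3K4me2 covered the 38 windows densely in both genotypes. Coverage is the percent of a window that lies in peaks, and since the lists differ in number of peaks it was ranked among all gene windows of the same list, as a percentile. The median percentile of the 38 genes was 85.7, 89.9 and 87.2 in WT and 84.0, 86.9 and 87.5 in KO. The mean was lower in KO at 25 genes and higher at 13, and the median difference was -1.82 percentile points beside 0.032 over all windows tested. No gene of the 38 passed the test (limma, 17575 windows, lowest adjusted p = 0.596), and 0% of all windows did. At an unadjusted p under 0.05 there were 5 genes, where 4.04% of all windows passed: Cyp2e1, Cyp2c29 and Cyp2c50 lower in KO (2.96% of all), Gstm3 and Gstm1 higher (1.08% of all). These were also the genes whose percentiles did not overlap between genotypes, 3 lower beside 4.99% of all windows and 2 higher beside 3.41%. With 3 against 3 lists the exact permutation test cannot go below p = 0.1.

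Cyp2e1 had the largest difference among these 5. H3K4me2 covered 24.6%, 32.9% and 17.6% of its window in WT and 3.52%, 17.1% and 9.07% in KO. In percentiles this was 98.2, 97.7 and 94.6 in WT and 65.3, 83.6 and 70.7 in KO. Every KO list lay below every WT list, and Cyp2e1 was the only one of the 38 genes for which this held in raw coverage, where 0.808% of all windows did the same. The reverse held for none of the 38 and for 0.0569% of all windows. The means were 96.8 ± 1.94 and 73.2 ± 9.42 percentile points (SD, n = 3), a difference of -23.6 (SE 4.38, limma adjusted p = 0.596, and 0.351 with a replicate block). Without KO replicate 3, the list with the most peaks, the difference was -22.4. The C/EBPα peak number of the same window was also lower in both KO lists.

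At Cyp2c50 the percentiles were 75.1, 75.4 and 83.6 in WT and 58.8, 62.9 and 64.7 in KO (difference -15.9, SE 5.09, limma adjusted p = 0.999). At Cyp2c29 they were 65.0, 74.1 and 69.7 in WT and 40.9, 55.3 and 63.4 in KO (difference -16.4, SE 6.78, limma adjusted p = 0.999). Neither gene's raw coverage separated the genotypes.

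Gstm3 went the other way from its C/EBPα peaks. Its percentiles were 75.0, 84.8 and 72.2 in WT and 90.1, 94.6 and 98.5 in KO (difference 17.1, SE 3.74, limma adjusted p = 0.805, and 15.1 without KO replicate 3). Gstm1, whose window overlaps it, had 85.3, 90.1 and 87.5 in WT and 92.1, 94.6 and 91.4 in KO (difference 5.05, SE 1.97, limma adjusted p = 0.999). Both differences turned negative when only H3K4me2 peaks with a higher −log10 q were used, to -12.4 and -2.61 percentile points, so neither direction held across peak thresholds. Over 1-kb bins, 3 of 205 marked in all WT lists were marked in no KO list (1.46%, beside 2.01% of all bins), in the windows of Cyp2e1, Ugt2b36 and Gstp1. The reverse held for 1 of 120 bins marked in all KO lists (0.833%, beside 0.175%), in the window of Gstm3.

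**Figure D4:**
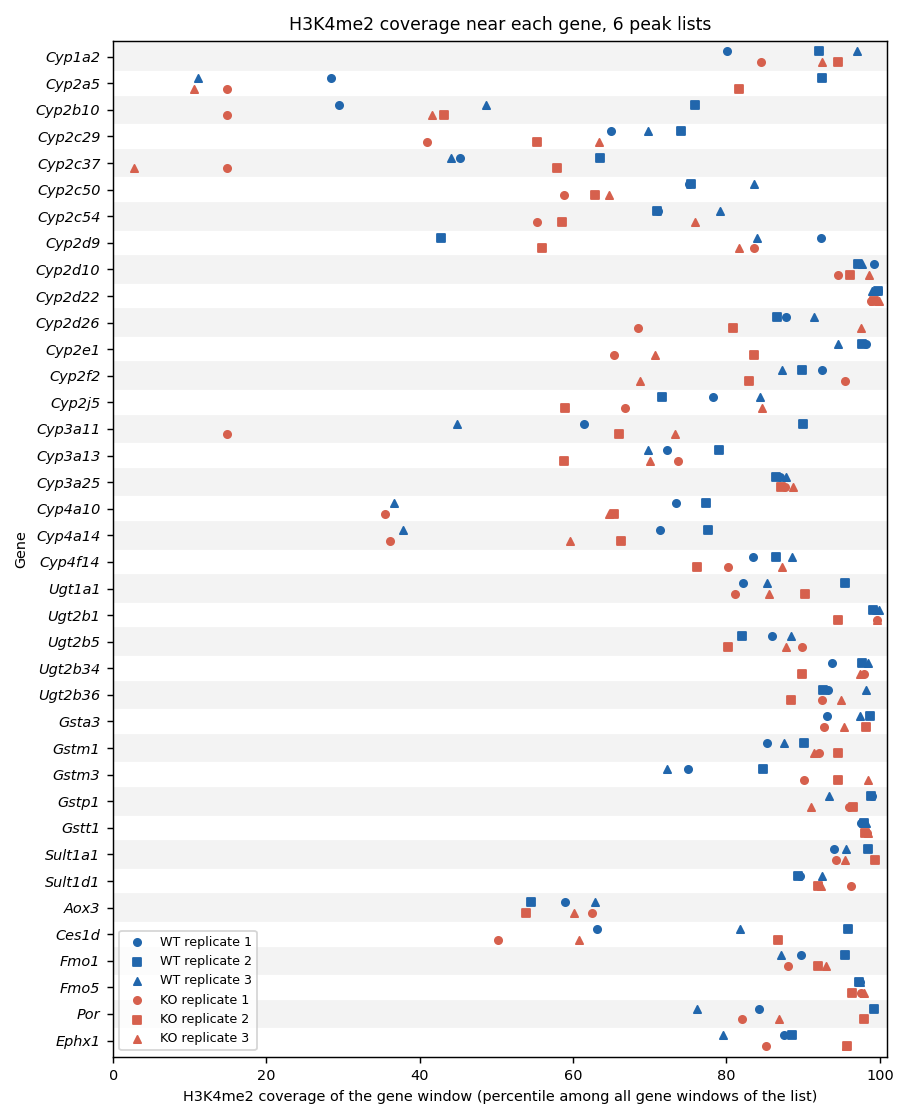
H3K4me2 coverage of each gene's window as a percentile within its list (x axis), for 3 WT lists (blue) and 3 KO lists (red), with marker shape giving the replicate number. The lists separate without overlap at Cyp2e1, Cyp2c29 and Cyp2c50 (KO lower) and at Gstm3 and Gstm1 (KO higher).

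Other genes of the pathway were treated in the same way, and their counts were taken over all matched genes, with or without C/EBPα. Of all windows, 12.3% held a lost region, 5.89% a gained one and 20.2% an ARID1A peak. The shares of 27.1% (lost) and 13.4% (gained) hold only for windows with a region in both WT or both KO lists. Calls were made in 5.92% (lower) and 3.46% (higher) of windows tested. An ARID1A peak lay in 20 of 38 windows of other P450 genes, 22 of 32 of other conjugation genes and 19 of 23 of other oxidation and hydrolysis genes. Of the 11 drug transporter windows, 8 held one. Frequent ARID1A peaks were thus not particular to the 38 genes. Of 15 regulators of xenobiotic response, such as the nuclear receptors Nr1i2 and Nr1i3, 12 windows held an ARID1A peak, 5 a lost and 2 a gained region. The C/EBPα fit called none of the 14 regulators tested. Among 38 other P450 genes (1 more name of the 39 listed did not match the annotation), 5 windows held a lost and 4 a gained region, and 1 of 28 tested was called, Cyp3a44 (2 and 2 in WT, 1 and 1 in KO). Of 32 other conjugation genes, 9 held a lost and 3 a gained region, and 3 of 24 tested were called lower. These were Gstm6 (4 and 4 in WT, 1 and 1 in KO) and Gstm2 (4 and 4 in WT, 2 and 2 in KO), both neighbours of Gstm3 that share its regions, and Ugt3a1 (3 and 3 in WT, 2 and 2 in KO). Gsta2 had C/EBPα at its start in both KO lists and no WT list.

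Among 23 other oxidation and hydrolysis genes, 6 held a lost and 0 a gained region, and 2 of 21 tested were called lower, Ces3b (4 and 4 in WT, 3 and 3 in KO) and Ces1e (6 and 6 in WT, 5 and 5 in KO). The carboxylesterase genes Ces1c and Ces3b had C/EBPα at the start in both WT lists and no KO list. This pattern was absent from the starts of the 38 genes, of which only 12 had C/EBPα in both WT lists. Of 11 drug transporter genes, 4 held a lost and 1 a gained region. The efflux pump gene Abcc3 had C/EBPα at its start in both WT lists only (6 and 7 peaks in the window in WT, 1 and 3 in KO), and the uptake transporter gene Slco1a4 was called higher (2 and 2 in WT, 4 and 4 in KO). As for the 38 genes, every call in these lists fell on a window with equal numbers within each genotype.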

How the data were processed

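Perfused hepatocytes were profiled by ChIP-seq in 21 samples, of which 11 have a peak list. The other 10 are inputs, not used here. Per the submitters' processing notes, the build was mm10 and the tools were HOMER, Picard, MACS2 2.0.10.20131216 and Bowtie2 2.2.3, with no role or order given. The deposited C/EBPα and V5 lists hold positions only. The deposited H3K4me2 lists add, per the values and the broad peak layout, a score, a fold (ratio) over background, and −log10 p and −log10 q of each peak, all from the authors' peak caller, and only −log10 q was used, for a stricter threshold at the pooled median. Peak numbers and covered length per window, peak-width percentiles within a list, and merged regions were computed in Python 3.11.15 with pandas 2.3.3 and NumPy 2.4.6, and the tests in limma 3.58.1 (R 4.3.3) with a trended prior, two-sided, with Benjamini-Hochberg adjustment over all windows tested: C/EBPα windows with at least 4 peaks summed over the 4 lists, as log2(peaks + 1), and H3K4me2 windows covered in at least 3 of 6 lists. Each test used only the lists of its own target.

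On simulated data, the C/EBPα fit recovered 0% of 200 windows changed 2-fold or 4-fold in expected peaks (9457 windows, Poisson spread), and the H3K4me2 fit 16.5% of 200 windows changed by 20 percentile points and 74.5% at 40 (17575 windows). The C/EBPα simulation also made 0 false calls, while the real fit called 9.38% of windows, with 35.2% of them lacking spread within a genotype. Its spread was thus unlike that of the data, so its 0% does not give the power of the reported fit. The depth is unknown, so the limits of detection are too. For H3K4me2, same-numbered WT and KO lists deviated together at replicates 1 and 2 (r = 0.455 and 0.654 across windows). At replicate 3 they did so less (r = 0.14) than WT replicate 3 and KO replicate 1 did (r = 0.313). The labels do not say that a number marks a shared animal or day, so the main fit had no block. The fit with a block called no further gene. Genes and promoters came from RefSeq on GRCm38.p6, the assembly of mm10, and all 38 names matched. The 38 genes and the other lists were chosen with earlier results of these data known. Values in every list are given for genes with a lost or gained region, with groups that do not overlap, with a call, or with ARID1A at the start. Promoters are printed for at most 5 genes covered by C/EBPα, lost or gained first, then those with ARID1A, then by width. Alternatives covered the flank, list size, peak width, overlap length, pseudocount, filters, peak threshold, ranking, the block and leaving out each list.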

Additional observations from a re-analysis of the deposited data

How the results depend on the processing

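Lost regions near the 38 genes numbered 15. They fell to 7 of 84 with 10 kb on each side, to 7 of 93 with lists cut to equal size and to 2 of 48 among the wider peaks (width at or above the median), and ranged from 17 to 34 when one list was left out. Their share stayed below that of all regions in each of these settings. Gained regions numbered 5 (4.81%, beside 5.27% of all regions), then 9 of 143 with 50 kb on each side (6.29%, beside 5.27%). They numbered 8 of 60 among wide peaks (13.3%, beside 12.1%), and from 8 to 13 when one list was left out. The gained share was above that of all regions with 50 kb, among wide peaks and without WT replicate 1 (7.69%, beside 6.71%). It was below that of all regions in the other settings. C/EBPα regions with an ARID1A peak numbered 40, and 61 with 50 kb on each side, and from 41 to 44 when one WT list was left out. A shared length of 100 bp changed none of these counts. Genes called for C/EBPα peak number were 4 (9.38% of all windows), then 0 with 50 kb on each side (8.82%), 3 others among wide peaks (Cyp2d22, Ugt1a1 and Ugt2b5; 7.93%), 5 with equal lists (Cyp2d10, Cyp2d22, Aox3, Ces1d and Ephx1; 10.7%), 4 with 10 kb on each side (Cyp2d10, Gstm3, Ces1d and Ephx1; 8.61%), the main 4 with a prior of 0.5 peaks, and from 6 to 8 when one KO list was left out. The fits without a filter and without either WT list could not be made, since 59.9%, 60.5% and 60.5% of windows had no spread left. With a replicate block the count of called genes was 4 (9.06% of all windows), and the numbers did not pair the C/EBPα samples (r = 0.0524, 2 pairs). The log2 difference of Cyp2f2 turned to 0.292 among wide peaks, and the H3K4me2 differences of Gstm3 and Gstm1 to -12.4 and -2.61 with the stricter threshold. The causes were not tested. Genes called for H3K4me2 were 0 in all 12 alternatives, the replicate block included. At an unadjusted p under 0.05 (limma) there were 9 genes with the block, against 5 without it (beside 4.04% of all windows). The share of all windows passing with the block was not computed, so the rise cannot be read as particular to these genes. The H3K4me2 difference of Cyp2e1 lay between -29.8 and -12.9 percentile points in 11 of the 12 alternatives, and in unranked coverage it was -15.1% of the window.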
